A study of Rattus norvegicus with 7 samples.

Results

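The transcriptome of cardiomyocytes transfected with miR-33b* was set against that of cardiomyocytes transfected with either of a pair of microRNAs (miRNAs) that share a seed, miR-302d-3p and miR-373-3p. The contrast was taken gene by gene, as the log2 of (RPKM + 1) in the miR-33b* library minus the mean of the same value in the libraries of the pair. RPKM is a read number per length of gene and per library size. Genes entered where their RPKM, averaged over all 7 libraries, was 1 or more, which were 12330 of the 17141 in the table. The gene just inside this limit had a mean of 1.0001 RPKM and the gene just outside it 0.999 RPKM.

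The cells were ventricular cardiomyocytes of wild type Wistar rats on postnatal day 0, isolated after removal of the atria and transfected with 1 synthetic miRNA at 25 nM. RNA was taken after 72 h and polyadenylated transcripts were sequenced. There was 1 library for miR-33b*, 1 for each miRNA of the pair, and 1 for each of the 4 others: miR-199a-3p, miR-590-3p, miR-1825 and the nematode miRNA cel-miR-67. Every library came from transfected cells, and no untransfected culture was analysed here. Before plating, the cells were left on plastic for a time, and the cells that stayed in suspension, which per the labels were cardiomyocytes for the most part, were used. The title of the series concerns pathways common to miRNAs that induce cardiomyocyte proliferation.

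A miRNA guides argonaute proteins to messenger RNAs that pair with a short stretch near its 5′ end, the seed, and the paired transcripts are degraded or translated less. miR-302d and miR-373 belong to a family abundant in embryonic stem cells whose members carry the same seed and therefore share many targets. miR-33b* is the passenger strand of miR-33b, which in humans lies in an intron of the sterol regulator gene SREBF1. It is not a member of that family.

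Of the genes on which the comparison turned, the atrial light chain genes Myl4 and Myl7 and the small heat shock protein gene Hspb6 are shown with the 250 bases before their start, since they stood far apart in the pair alone. The RefSeq promoter table (build GRCr8) held entries for 3 of the 5 genes looked for. Capitals mark the E-box CANNTG and the TATA box TATAAA on either strand.
Myl4, chr10:89975900-89976149, plus strand: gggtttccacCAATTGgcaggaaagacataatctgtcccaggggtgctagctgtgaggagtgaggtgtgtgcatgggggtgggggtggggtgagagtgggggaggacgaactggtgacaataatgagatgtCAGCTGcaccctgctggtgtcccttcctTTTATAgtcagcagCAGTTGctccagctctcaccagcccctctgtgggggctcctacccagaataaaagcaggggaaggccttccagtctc
Myl7, chr14:84996625-84996874, minus strand: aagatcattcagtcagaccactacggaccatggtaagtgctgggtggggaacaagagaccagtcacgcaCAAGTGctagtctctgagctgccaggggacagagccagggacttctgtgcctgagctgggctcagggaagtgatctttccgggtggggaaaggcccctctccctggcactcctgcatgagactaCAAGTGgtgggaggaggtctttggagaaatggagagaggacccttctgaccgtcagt
Hspb6, chr1:94934122-94934371, plus strand: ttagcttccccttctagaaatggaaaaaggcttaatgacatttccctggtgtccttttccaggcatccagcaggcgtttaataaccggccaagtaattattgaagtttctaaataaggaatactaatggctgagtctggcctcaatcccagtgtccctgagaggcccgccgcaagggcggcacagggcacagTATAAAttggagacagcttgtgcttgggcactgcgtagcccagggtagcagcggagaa
An E-box occurred 3 times for Myl4, 2 times for Myl7 and 0 times for Hspb6, and 65.5% of 33469 rat promoter windows of the same length held at least 1. The letters TATAAA occurred 1 time each for Myl4 and Hspb6 and 0 times for Myl7, against 12.9% of all windows. The letters CATTCC (12.1% of windows), GATAA (23.5%) and the CArG box (1.5%) matched in none of the 3. The matches describe letters, not binding.

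The libraries held 22616079 reads over the listed genes for miR-33b*, 29377016 for miR-373-3p and 31963304 for miR-302d-3p, against 23144660 to 26779313 for the other 4. Mitochondrial genes took 37.9% of these reads for miR-33b*, 33.2% for miR-373-3p and 30.6% for miR-302d-3p, and 27.7% to 41.4% for the other 4. Each miRNA has 1 library, so differences lack a replicate check, and no p-value was computed. "Higher" and "lower" therefore compare these libraries, and the intervals given are exact Clopper-Pearson 95% intervals of a ratio of read rates, which cover counting error only. In keeping with the labelled cell type, 9 cardiomyocyte markers were read in every library and summed to 13060 RPKM for miR-33b*, 11449 for miR-373-3p and 11522 for miR-302d-3p, and 10824 to 13446 for the other 4. Markers of other cells were also read. The 13 fibroblast markers summed to 953 RPKM for miR-33b*, 902 for miR-373-3p and 769 for miR-302d-3p. All these sums lay below those of the other 4 libraries, 988 to 1469 RPKM. The 12 smooth muscle and pericyte markers summed to 1787 RPKM for miR-33b*, 1285 for miR-373-3p and 1282 for miR-302d-3p. In the other 4 libraries they summed to 1432 to 1947 RPKM. In such bulk samples fewer cells of a type and less RNA per cell cannot be told apart.

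miR-33b* stood at about the same distance from each member of the pair, and the members of the pair stood closer to each other. Across genes, the SD of the log2 difference was 0.37 between miR-33b* and miR-373-3p, 0.39 between miR-33b* and miR-302d-3p, and 0.22 between miR-302d-3p and miR-373-3p. At least 2-fold apart were 239 genes between miR-33b* and miR-373-3p, 304 between miR-33b* and miR-302d-3p, and 52 within the pair. The contrast itself had an SD of 0.36 and a median of -0.01, and 87.3% of genes lay within 0.5 of 0 on the log2 scale, against 96.5% for the pair's own difference. Genes are not replicates, and these values describe widths only.

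**Figure D1:**
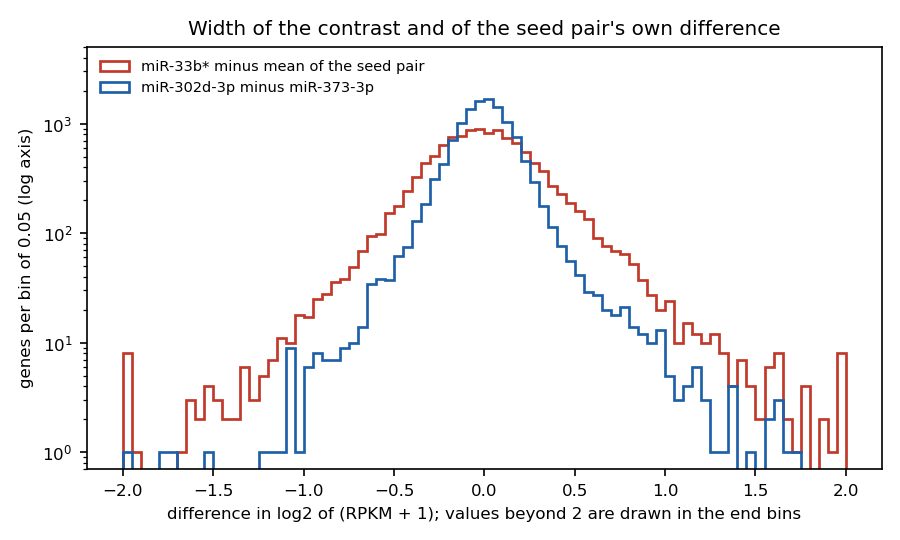
Number of genes (log axis) in bins of the difference in log2 of (RPKM + 1), for miR-33b* minus the mean of the seed pair (red) and for miR-302d-3p minus miR-373-3p (blue). The red outline is wider on both sides, with an SD of 0.36 against 0.22.

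By the same measure miR-33b* was nearer to the pair than the other 4 libraries were. Relative to the pair mean, miR-33b* had 140 genes past 2-fold upwards and 86 downwards, together 1.83% of those tested. The counts were 220 and 218 for miR-199a-3p, 224 and 137 for cel-miR-67, 187 and 107 for miR-590-3p, and 268 and 220 for miR-1825. The SD of the difference from the pair mean was 0.36 for miR-33b* and 0.39 to 0.46 for the other 4. The library nearest to miR-33b* was not one of the pair: its SD of difference was 0.35 with miR-590-3p.

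The 140 higher genes were 1.14% of the 12330, and the 86 lower genes 0.697%. These are the shares over all genes to set beside each count of list members 2-fold apart below. At least 2-fold from each library of the pair singly were 91 genes higher (0.738%) and 49 lower (0.397%). Both intervals of the ratio lay above 1 for 120 of the 140 (85.7%) and below 1 for 63 of the 86 (73.3%). The genes were picked by differences between these same libraries, so these counts mostly reflect read numbers and lend the differences no support. The same count was not made over all genes. Protein-coding genes were 99 of the 140 and 58 of the 86, against 11311 of all 12330 genes tested. The remainder of the higher genes included 14 miRNA rows and 10 small nucleolar RNA rows, and that of the lower genes 19 small nucleolar RNA rows, all short genes with few reads per RPKM. The median length was 1288 bases for the higher genes and 967.5 for the lower ones, against 2232 bases for all genes tested.

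**Figure D2:**
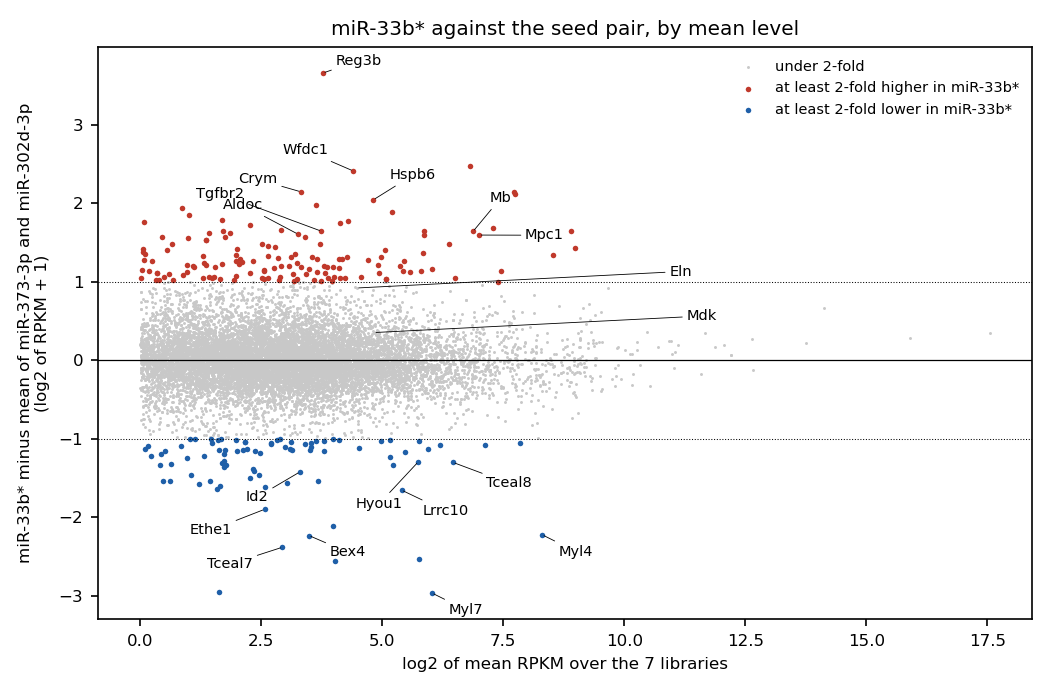
The contrast of each of 12330 genes (vertical axis, log2 scale, positive where miR-33b* is higher) against the log2 of its mean RPKM over the 7 libraries. The 140 genes at least 2-fold higher are red and the 86 at least 2-fold lower are blue, and Mdk and Eln, shared with the pair, lie inside the 2-fold limits at 0.35 and 0.92.

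The genes past 2-fold were also sorted by where miR-33b* and the pair mean lay relative to the other 4 libraries. Of the 140 higher genes, 58 (41.4%) had miR-33b* inside the range of the other 4 and the pair mean outside it, and 31 had miR-33b* outside and the pair inside. A further 28 had them on opposite sides of the others. Of the 86 lower genes, 30 (34.9%) had miR-33b* inside and the pair outside, 19 the reverse, and 22 opposite sides. These shares follow from where the 4 other libraries happened to lie and have no error. The same positions were not counted over all genes, so the shares do not tell which library moved.

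The largest positive contrast among the genes that the naming rule covers was that of Reg3b, which encodes a secreted lectin of the regenerating islet-derived family. It stood at 36.6 RPKM for miR-33b*, 2.59 for miR-373-3p and 1.48 for miR-302d-3p, a contrast of 3.66. The miR-33b* value was 14.1 times that of miR-373-3p (interval 10.9 to 18.7) and 24.8 times that of miR-302d-3p (18.02 to 35.1). The other libraries ran from 6.55 for miR-590-3p to 30.9 for cel-miR-67, so that the pair stood below all others and miR-33b* above them. Crym, which encodes a thyroid hormone-binding protein, had a like order, with 20.0 RPKM for miR-33b*, 3.87 for miR-373-3p and 3.64 for miR-302d-3p, with 8.37 to 14.3 for the others. Rrad, which encodes a small GTPase that inhibits calcium channels, was at 35.9 RPKM for miR-33b*, 12.9 for miR-373-3p and 7.36 for miR-302d-3p, with 14.8 to 28.4 for the others.

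The oxygen store gene of muscle, Mb (myoglobin), and the matrix mineralisation inhibitor gene Mgp were also among the 12 highest. Mb stood at 146 RPKM for miR-33b*, 51.6 for miR-373-3p and 41.2 for miR-302d-3p, while the other 4 split into 235 and 252 for miR-199a-3p and cel-miR-67 and 55.6 and 39.3 for miR-590-3p and miR-1825. The pair thus lay with miR-590-3p and miR-1825, and miR-33b* lay between these and the others. Mgp stood at 158 RPKM for miR-33b*, 62.5 for miR-373-3p and 37.4 for miR-302d-3p, with 98.2 to 324 for the others.

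At the other end were genes lower for miR-33b*. Lrrc10, a cardiac leucine-rich repeat gene, was at 22.8 RPKM for miR-33b*, 70.9 for miR-373-3p and 77.2 for miR-302d-3p, and 20.0 to 48.3 for the others. Hyou1, a chaperone gene of the endoplasmic reticulum, was at 26.2 RPKM for miR-33b*, 60.9 for miR-373-3p and 71.1 for miR-302d-3p, with 30.0 for miR-199a-3p and 53.02 to 67.9 for the remaining 3, so that miR-33b* was the lowest library. Lypd1, at a contrast of -1.57, the matrix protease gene Adamts5, at -1.47, and Tceal8, at -1.30, completed the genes of this end that belonged to none of the parts described next.

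The shared part was made of genes for which miR-33b*, miR-373-3p and miR-302d-3p all lay at least 1.5-fold beyond the highest, or the lowest, of the other 4 libraries. There were 26 such genes above the others (0.211% of those tested) and 19 below (0.154%). Seed pairing does not enter this rule, and cel-miR-67 served only as 1 of the 4 others. Folds of the contrast and of the gaps were taken on (RPKM + 1), here and below. They therefore understate plain ratios of RPKM, most in low genes.

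Midkine (Mdk), a heparin-binding growth factor of the embryo, had the widest gap. It stood at 66.5 RPKM for miR-33b*, 46.1 for miR-373-3p and 58.6 for miR-302d-3p, against 11.6 for miR-199a-3p, 5.75 for cel-miR-67, 5.91 for miR-590-3p and 4.04 for miR-1825. All 3 libraries lay far above the others, and the smallest gap was 3.74-fold. For Mdk the miR-33b* library was the highest of the 3, at 1.44 times miR-373-3p (interval 1.32 to 1.57) and 1.14 times miR-302d-3p (1.05 to 1.23).

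The rest of the midkine list did not follow Mdk into the shared part. Of 8 measured members, 0 were 2-fold apart in the contrast and Mdk alone was in the shared part. Above 0 in the contrast were 7 (87.5%), Mdk among them, with a median of 0.20, against 48.8% and -0.01 for all genes. Pleiotrophin (Ptn), the other growth factor of this family, was at 32.5 RPKM for miR-33b*, 28.1 for miR-373-3p and 26.6 for miR-302d-3p, and 19.7 to 30.2 for the others. Alk, which encodes a receptor reported for midkine, was under 0.1 RPKM in each of the 3 libraries and at 0 for miR-33b*.

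Of the other shared higher genes, 6 met the naming rule. Pirt, a regulator of sensory ion channels, had a gap of 2.53-fold, with 2.64 to 4.15 RPKM for the others. Igf2r, the receptor for insulin-like growth factor 2 and mannose 6-phosphate, was at 183 RPKM for miR-33b*, 176 for miR-373-3p and 171 for miR-302d-3p, against 77.8 to 102 for the others. Dkk3, of the dickkopf family of secreted proteins, was at 53.9 RPKM for miR-33b*, 46.7 for miR-373-3p and 50.4 for miR-302d-3p, against 14.1 to 29.3 for the others. For Igf2r and Dkk3 the 3 libraries lay close to each other. Tmeff1, with a gap of 1.64-fold, Lsp1, an actin-binding protein gene, with 1.57-fold, and the nectin gene Pvrl2, with 1.53-fold, were the other named genes.

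Elastin (Eln), the core protein of elastic fibres, was among the shared lower genes. It stood at 9.47 RPKM for miR-33b*, 5.70 for miR-373-3p and 3.58 for miR-302d-3p, against 48.9 for miR-199a-3p, 52.3 for cel-miR-67, 19.1 for miR-590-3p and 16.1 for miR-1825. All 3 libraries lay below the others, with a smallest gap of 1.64-fold. miR-33b* was nevertheless the highest of the 3, at 1.66 times miR-373-3p (interval 1.49 to 1.85) and 2.65 times miR-302d-3p (2.36 to 2.98). Eln therefore met the rule of the shared part and that of the pair alone, as did Murc and Zfp367. Selplg and Tnnt1 met both rules in the other direction, higher.

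Murc, which encodes the muscle caveolae protein cavin-4, was at 18.7 RPKM for miR-33b*, 10.6 for miR-373-3p and 11.3 for miR-302d-3p, against 38.9 to 46.1 for the others. Fhl1, which encodes a LIM domain protein of muscle, was at 123 RPKM for miR-33b*, 108 for miR-373-3p and 75.7 for miR-302d-3p, against 192 to 322 for the others. Kif5b, the kinesin-1 motor gene, was at 152 RPKM for miR-33b*, 132 for miR-373-3p and 104 for miR-302d-3p, against 233 to 256 for the others. In each of these 3 genes miR-33b* was the mildest of the 3.

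Tmem109 was the even case. This gene, which encodes a membrane protein of the endoplasmic reticulum and nucleus, was at 14.5 RPKM for miR-33b*, 14.8 for miR-373-3p and 14.1 for miR-302d-3p, against 29.5 to 32.8 for the others, and its ratio of 0.984 to miR-373-3p had an interval of 0.885 to 1.09. Zfp367, a zinc finger gene, was at 9.67 RPKM for miR-33b*, 5.02 for miR-373-3p and 4.13 for miR-302d-3p, against 16.8 to 27.7 for the others. Cdh13 (T-cadherin), Akip1, Adamtsl2 and the secreted phospholipase gene Pla2g5 had gaps of 1.84-fold, 1.60-fold, 1.505-fold and 1.504-fold. The median length of the 19 shared lower genes was 3337 bases, against 1294 for the 26 shared higher ones.

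**Figure D3:**
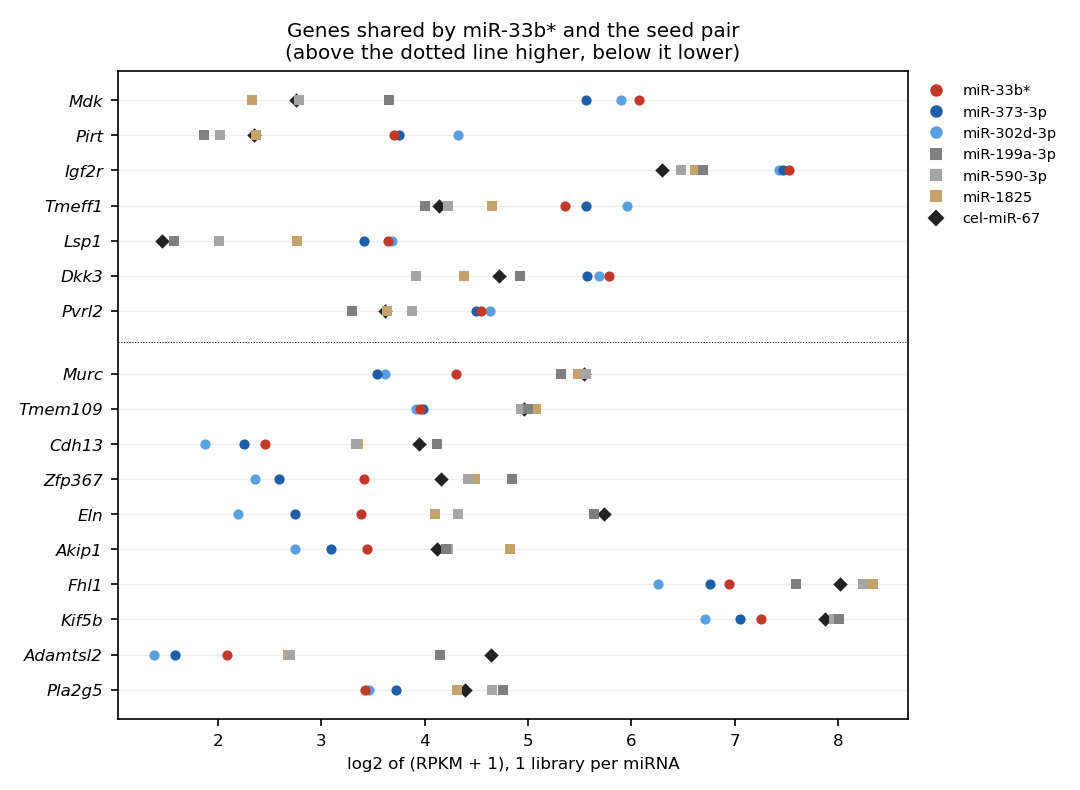
Levels (log2 of RPKM + 1, 1 point per library) of the named genes shared by miR-33b* (red) and the seed pair (blue), with the other 4 libraries in grey, brown and black. Above the dotted line the 3 coloured circles lie right of all other points, and below it they lie left of them.

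The reach of the shared part depends on how far miR-33b* followed the pair. The pair lay at least 1.5-fold beyond the other 4 libraries in 74 genes upwards (0.6% of those tested) and 126 downwards (1.02%). Of the 74, miR-33b* lay beyond the others by the same limit in 26 (35.1%), beyond by less in 31 (41.9%), within their range in 14 (18.9%) and on the opposite side in 3 (4.05%). For the 126 these numbers were 19 (15.1%), 64 (50.8%), 35 (27.8%) and 8 (6.35%). Distances in log2 were also taken from the median of the other 4 libraries. The distance of miR-33b* as a percentage of the pair's had a median of 45.8% in the 74 and 34.7% in the 126. A difference between these 2 directions was not tested. How often miR-33b* lay beyond the other 4 libraries over all genes was not counted.

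The part of the pair alone held 35 genes higher (0.284%) and 73 genes lower (0.592%) than all 5 other libraries by at least 1.5-fold. Protein-coding genes were 32 of the 35 and 72 of the 73, against 11311 of all 12330 genes tested. The widest gaps were those of Myl7 and Myl4 upwards and of Wfdc1 and Hspb6 downwards.

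Myl7, the atrial regulatory light chain of myosin, had the widest gap of all. It stood at 21.9 RPKM for miR-33b*, 165 for miR-373-3p and 194 for miR-302d-3p, with 21.1 for miR-199a-3p, 18.9 for cel-miR-67, 20.1 for miR-590-3p and 16.4 for miR-1825. miR-33b* lay with the other libraries, at 0.133 of miR-373-3p (interval 0.125 to 0.142) and 0.113 of miR-302d-3p (0.107 to 0.120). The pair's smallest gap to the rest was 7.22-fold.

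Myl4, the atrial essential light chain, also stood far above all others in the pair. It was at 182 RPKM for miR-33b*, 838 for miR-373-3p and 876 for miR-302d-3p, with 42.6 for miR-199a-3p, 83.2 for cel-miR-67, 141 for miR-590-3p and 45.6 for miR-1825. miR-33b* was the highest library after the pair, as it was by less for Myl7. On the log2 scale miR-33b* lay 1.55 above the median of the other 4, against 3.78 for the pair. For Myl4 the miR-33b* library thus stood between the pair and the others. The ratio of miR-33b* was 0.218 to miR-373-3p (interval 0.2096 to 0.226) and 0.208 to miR-302d-3p (0.201 to 0.216).

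In the contrast most of the atrial list did not move with the light chains. Of 10 measured members of 14 listed, 2 were at least 2-fold lower in the contrast, Myl4 and Myl7, and 0 were higher. The median contrast was 0.09, against -0.01 for all genes. What miR-33b* and the pair share cancels in the contrast. Against the other 4 libraries the list median was 0.01 for miR-33b* and 0.25 for the pair, with -0.01 and -0.001 for all genes. Dkk3, a gene of the shared part, is also on this list. Nppa, the atrial natriuretic peptide gene, was at 1948 RPKM for miR-33b*, 2074 for miR-373-3p and 1649 for miR-302d-3p, with 561 to 3098 for the others. Sarcolipin (Sln), an inhibitor of the calcium pump, was at 4.93 RPKM for miR-33b*, 8.10 for miR-373-3p and 7.64 for miR-302d-3p, with 6.73 to 19.1 for the others. The atrial transcription regulator genes Nr2f1 and Nr2f2 had less than 1 RPKM in every library.

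The ventricular list gave no such pair. Of 8 measured members 0 were 2-fold apart, with a median of 0.09. Myl2, the ventricular regulatory light chain gene, was at 6622 RPKM for miR-33b*, 7116 for miR-373-3p and 7354 for miR-302d-3p, with 4768 to 6838 for the others. Myh7, the slow myosin heavy chain gene, was at 1728 RPKM for miR-33b*, 1529 for miR-373-3p and 1424 for miR-302d-3p, and 809 to 1226 for the others, so all 3 libraries lay above the other 4 without reaching the 1.5-fold limit. The sarcomere list (22 measured) had 2 members 2-fold lower, again Myl4 and Myl7, and a median of -0.08. Tnni3, the cardiac troponin I gene, was just short of the limit, with 222 RPKM for miR-33b*, 420 for miR-373-3p and 469 for miR-302d-3p, with 138 to 351 for the others.

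Besides the light chains, the genes higher in the pair alone spanned several functions. Slc2a1, the basal glucose transporter gene, was at 38.0 RPKM for miR-33b*, 69.8 for miR-373-3p and 109 for miR-302d-3p, with 21.6 to 27.2 for the others, so miR-33b* lay between. Id2, an inhibitor of helix-loop-helix factors, was at 6.32 RPKM for miR-33b*, 19.1 for miR-373-3p and 18.3 for miR-302d-3p, with 3.75 to 8.37 for the others. Csrp2, a LIM domain protein gene of smooth muscle, was at 21.1 RPKM for miR-33b*, 41.3 for miR-373-3p and 53.3 for miR-302d-3p, with 9.21 to 14.1 for the others. Cdh3 (P-cadherin), the calcium-binding gene Sri (sorcin), the aldose reductase gene Akr1b1, the Mediator subunit gene Med10, Bex4 and Gmfb had gaps of 1.58-fold to 1.94-fold. Members of the calcium and cell cycle lists, the sodium-calcium exchanger gene Slc8a1 (340 RPKM for miR-33b*, 538 for miR-373-3p and 516 for miR-302d-3p) and the imprinted cyclin kinase inhibitor gene Cdkn1c (3.88, 7.26 and 12.8 RPKM), were also in this part.

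Among the genes lower in the pair alone, Hspb6, which encodes the small heat shock protein Hsp20, stood at 23.3 RPKM for miR-33b*, 5.18 for miR-373-3p and 4.64 for miR-302d-3p, with 28.6 for miR-199a-3p, 54.3 for cel-miR-67, 32.9 for miR-590-3p and 48.3 for miR-1825. miR-33b* was below the others but nearer to them than to the pair, at 4.51 times miR-373-3p (interval 3.85 to 5.29) and 5.03 times miR-302d-3p (4.30 to 5.89). Of the 8 measured small heat shock proteins and cofactors, Hspb6 alone was 2-fold apart. The most abundant of them, Cryab, was at 588 RPKM for miR-33b*, 429 for miR-373-3p and 397 for miR-302d-3p, with 617 to 880 for the others.

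Itga7, the integrin chain that binds laminin in muscle, was at 15.8 RPKM for miR-33b*, 5.21 for miR-373-3p and 3.00 for miR-302d-3p, with 20.3 to 29.7 for the others. Xirp2, an actin-binding gene of striated muscle, was at 24.1 RPKM for miR-33b*, 9.89 for miR-373-3p and 8.34 for miR-302d-3p, with 21.9 to 63.0 for the others. For Itga7 the miR-33b* library was the lowest after the pair.

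Other members lay near the other libraries for miR-33b*. Mpc1, a subunit of the mitochondrial pyruvate carrier, was at 135 RPKM for miR-33b*, 54.1 for miR-373-3p and 36.0 for miR-302d-3p, with 156 to 180 for the others. Msrb3, which encodes an enzyme that repairs oxidised methionine, was at 68.7 RPKM for miR-33b*, 22.7 for miR-373-3p and 21.6 for miR-302d-3p, with 65.3 to 87.5 for the others. Fgf1, a fibroblast growth factor gene, was at 16.1 RPKM for miR-33b*, 4.46 for miR-373-3p and 2.46 for miR-302d-3p, with 10.8 to 20.2 for the others. In Msrb3 and Fgf1 miR-33b* fell inside the range of the other 4. Wfdc1, a protease inhibitor-like gene, had the widest gap, 4.32-fold, with 15.9 RPKM for miR-33b*, 2.91 for miR-373-3p and 1.58 for miR-302d-3p, with 21.99 to 41.8 for the others. Clip4, Pxylp1 and Abca5 had gaps of 2.696-fold, 2.28-fold and 2.17-fold.

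**Figure D4:**
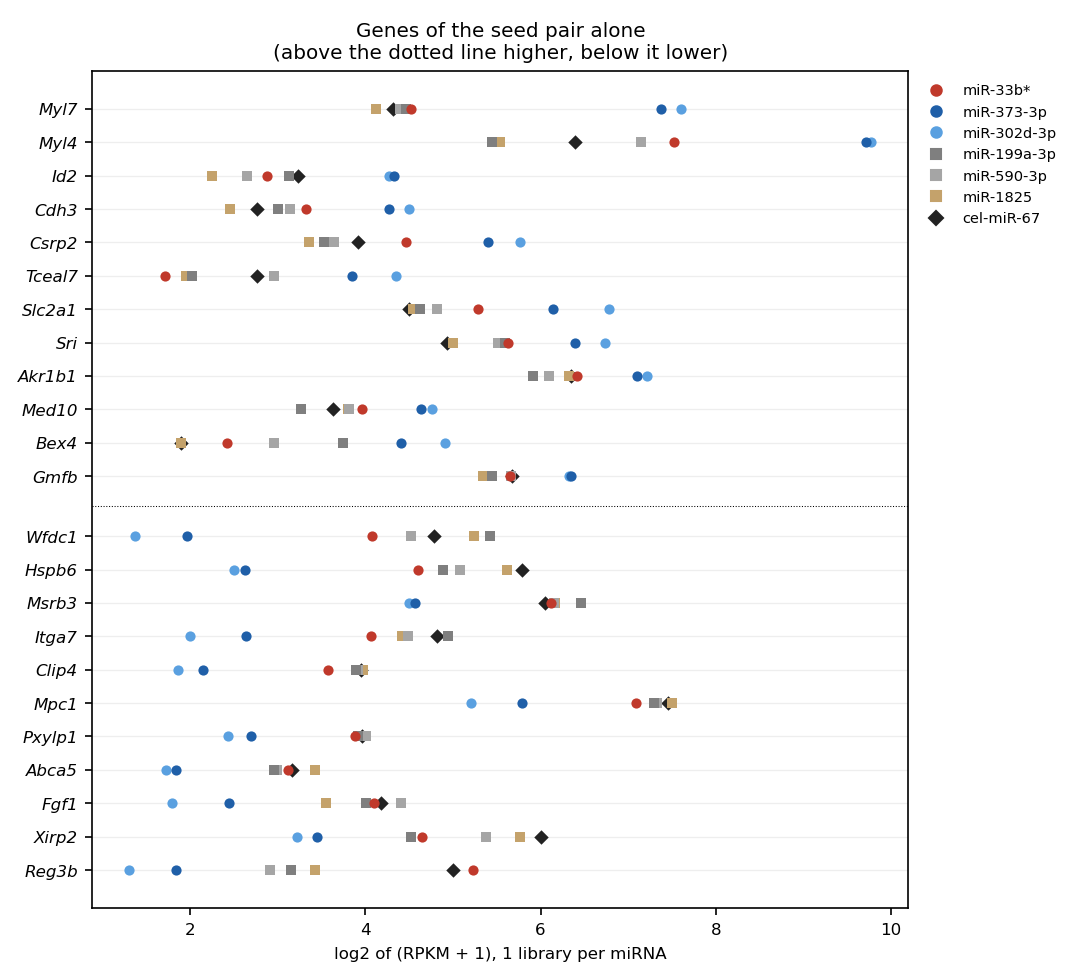
Levels (log2 of RPKM + 1, 1 point per library) of the named genes that stand apart in the seed pair alone. The blue points of miR-302d-3p and miR-373-3p lie right of all others above the dotted line, Myl7 by 7.22-fold, and left of all others below it. The place of miR-33b* (red) varies. It lies among the remaining libraries for Id2, between them and the pair for Myl4, and beyond them on the opposite side for Reg3b.

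Reported targets of the miR-302 and miR-373 family, a list written from general knowledge of human and mouse work, were more often above 0 in the contrast than genes at large. Of 22 measured, 17 (77.3%) were above 0, with a median of 0.34, against 6023 of 12330 genes (48.8%) above 0 and a median of -0.01. At least 2-fold higher were 3 and lower 0, against 1.14% and 0.697% of all genes. Against the other 4 libraries the list median was -0.01 for miR-33b* and -0.39 for the pair. Tgfbr2, a receptor for transforming growth factor beta, was at 17.4 RPKM for miR-33b*, 5.47 for miR-373-3p and 4.36 for miR-302d-3p, with 12.6 to 20.0 for the others. Lats2, a kinase of the Hippo pathway, was at 14.2 RPKM for miR-33b*, 6.49 for miR-373-3p and 6.58 for miR-302d-3p, with 13.3 to 19.4 for the others. Both lay inside the range of the other libraries for miR-33b*.

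Cdkn1a, the p21 inhibitor of cyclin kinases, was at 14.5 RPKM for miR-33b*, 6.21 for miR-373-3p and 5.44 for miR-302d-3p, with 9.03 to 15.1 for the others. Dazap2 was at 41.0 RPKM for miR-33b*, 26.7 for miR-373-3p and 17.8 for miR-302d-3p, with 49.0 to 65.6 for the others. Not all listed targets were low in the pair: Btrc, a ubiquitin ligase subunit gene, was at 6.41 RPKM for miR-33b*, 7.92 for miR-373-3p and 9.49 for miR-302d-3p, above the 4.58 to 5.95 of the others. The list was counted, not tested.

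Genes of G2 and M phase (24 measured) had 0 members 2-fold apart and a median contrast of -0.02; against the other 4 libraries the median was -0.32 for miR-33b* and -0.33 for the pair. Those 4 libraries were far apart: the list summed to 554 RPKM for miR-33b*, 577 for miR-373-3p and 507 for miR-302d-3p, with 609 for miR-199a-3p, 278 for cel-miR-67, 788 for miR-590-3p and 1116 for miR-1825. The 3 libraries thus lay above cel-miR-67 and below the remaining 3. S phase genes (21 measured) also had 0, with a median of -0.11 and 7 above 0. Cell cycle inhibitor genes (15 measured) had 13 members above 0, with a median of 0.32, against 48.8% of all genes above 0. At least 2-fold higher were 2 and lower 1, against 1.14% and 0.697% of all genes. Besides Cdkn1a, the antiproliferative gene Btg1 was 2-fold higher, at 61.2 RPKM for miR-33b*, 25.6 for miR-373-3p and 24.4 for miR-302d-3p, with 45.2 to 52.7 for the others. Cdkn1c was the 1 lower member.

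The elastic fibre list held genes of both parts. Of 19 measured members 3 were 2-fold higher in the contrast and 0 lower, against 1.14% and 0.697% of all genes. The list's median was 0.05, against -0.01 for all genes. The microfibril gene Mfap4 was at 4.95 RPKM for miR-33b*, 1.25 for miR-373-3p and 0.798 for miR-302d-3p, with 2.65 to 7.02 for the others. Ltbp2, a binding protein of latent transforming growth factor beta, was at 6.64 RPKM for miR-33b*, 3.05 for miR-373-3p and 1.82 for miR-302d-3p, with 7.29 to 10.5 for the others. Lox, which cross-links elastin and collagen, was at 12.9 RPKM for miR-33b*, 6.70 for miR-373-3p and 4.02 for miR-302d-3p, with 8.81 to 21.2 for the others. Fbn1 and Fbln5, which encode fibrillin-1 and fibulin-5 of the same fibres, had contrasts of -0.15 and -0.06.

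Fibroblast markers are expressed with these genes in heart cultures, and 1 of their 12 measured members was 2-fold apart. That gene, S100a4, was at 340 RPKM for miR-33b*, 163 for miR-373-3p and 110 for miR-302d-3p, with 371 to 604 for the others. The list's median contrast was 0.16, and Col1a1, Col1a2 and Ddr2 had contrasts of 0.10, -0.05 and -0.04. The part of fibroblasts in the values of Eln, Lox, Ltbp2, Mfap4 and S100a4 was not tested.

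The part of miR-33b* alone held 29 genes higher (0.235%) and 33 lower (0.268%) than all 6 other libraries by at least 1.5-fold. Protein-coding genes were 19 of the 29 and 23 of the 33, against 11311 of all 12330 genes tested. Among its genes named by the size of their gap the widest was 1.88-fold upwards and 2.90-fold downwards, against 7.22-fold and 4.32-fold in the pair. These folds are ratios of (RPKM + 1).

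The higher genes included enzymes of fuel use. Cpt1a, which imports long-chain fatty acids into mitochondria, was at 17.8 RPKM for miR-33b*, 8.97 for miR-373-3p and 7.79 for miR-302d-3p, with 6.02 to 8.48 for the others. Its ratio was 1.98 to miR-373-3p (interval 1.84 to 2.13) and 2.28 to miR-302d-3p (2.11 to 2.46). Aldoc, an aldolase gene of glycolysis, was at 22.5 RPKM for miR-33b*, 6.55 for miR-373-3p and 6.90 for miR-302d-3p, with 5.04 to 14.6 for the others. Eno2, the neuronal form of enolase, was at 35.2 RPKM for miR-33b*, 15.1 for miR-373-3p and 12.7 for miR-302d-3p, with 10.4 to 21.8 for the others. In each of these 3 genes miR-33b* was above all 6 other libraries.

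The pathways as listed did not follow their leading genes. Fatty acid oxidation (22 measured) had 1 member 2-fold higher, Cpt1a, 0 lower and a median of 0.19. The muscle form Cpt1b was at 11.3 RPKM for miR-33b*, 13.1 for miR-373-3p and 14.2 for miR-302d-3p, with 3.21 to 11.1 for the others. Glycolysis and glucose uptake (23 measured) had 1 member 2-fold higher, Aldoc, 1 lower, Slc2a1, and a median of 0.03. Against the other 4 libraries the glycolysis median was 0.26 for miR-33b* and 0.20 for the pair. The list of respiratory chain and citric acid cycle genes (20 measured) had 0 members 2-fold apart, 6 above 0 and a median of -0.17.

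Reported targets of the miR-33 passenger strands, from human work on lipid metabolism, include Cpt1a. Of 9 measured, 7 (77.8%) were above 0 in the contrast, with a median of 0.35, against 48.8% and -0.01 for all genes. Cpt1a was the 1 gene 2-fold apart, and it was higher for miR-33b*. Abca1, which exports cholesterol, was at 6.66 RPKM for miR-33b*, 5.41 for miR-373-3p and 4.26 for miR-302d-3p, with 7.85 to 14.2 for the others. Against the other 4 libraries the list median was -0.05 for miR-33b* and -0.14 for the pair. The remaining members, among them Crot, Hadhb, Npc1 and Prkaa1, had contrasts between -0.21 and 0.55.

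Uchl1, a neuronal ubiquitin hydrolase gene, was at 34.0 RPKM for miR-33b*, 15.5 for miR-373-3p and 13.5 for miR-302d-3p, with 9.19 to 17.8 for the others. Cthrc1, a secreted collagen triple helix repeat protein gene, was at 12.1 RPKM for miR-33b*, 5.36 for miR-373-3p and 4.57 for miR-302d-3p, with 3.37 to 6.11 for the others. Ccng2 (cyclin G2) had a gap of 1.65-fold. Vwa5a, with 1.51-fold, stands in the table under more than 1 identifier, so its reads may be split. The keratin gene Krt19, an epicardial marker, was at 5.73 RPKM for miR-33b*, 2.36 for miR-373-3p and 1.98 for miR-302d-3p, with 0.355 to 1.18 for the others, while Krt18 was the other way, at 9.01, 17.9 and 21.2 RPKM in the same order. Krt19 was the exception of its list: of 8 measured epicardial markers 1 (12.5%) was above 0 in the contrast, against 48.8% of all genes. The list's median was -0.21, against -0.01 for all genes. The 9 epicardial markers summed to 38.3 RPKM for miR-33b*, 53.8 for miR-373-3p and 49.6 for miR-302d-3p, and their part in the keratin values was not tested.

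Ethe1, which encodes a mitochondrial enzyme of sulfide breakdown, led the lower genes of miR-33b* alone. It stood at 1.13 RPKM for miR-33b*, 6.45 for miR-373-3p and 7.49 for miR-302d-3p, with 5.69 for miR-199a-3p, 7.04 for cel-miR-67, 8.49 for miR-590-3p and 5.16 for miR-1825. The other 6 libraries lay close together and miR-33b* far below, at 0.175 of miR-373-3p (interval 0.112 to 0.264) and 0.151 of miR-302d-3p (0.0966 to 0.226). Nfs1, another mitochondrial gene of sulfur chemistry, which supplies iron-sulfur clusters, was at 5.06 RPKM for miR-33b*, 8.67 for miR-373-3p and 8.51 for miR-302d-3p, with 8.81 to 13.4 for the others.

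Tmed2, a cargo receptor between the endoplasmic reticulum and the Golgi, was at 66.8 RPKM for miR-33b*, 139 for miR-373-3p and 147 for miR-302d-3p, with 133 to 185 for the others. Pgrmc1, a haem-binding membrane protein gene, was at 16.8 RPKM for miR-33b*, 41.5 for miR-373-3p and 40.5 for miR-302d-3p, with 32.4 to 44.2 for the others. S1pr1, a receptor for sphingosine 1-phosphate, was at 12.1 RPKM for miR-33b*, 20.1 for miR-373-3p and 21.8 for miR-302d-3p, with 19.4 to 26.7 for the others. For these 3 genes the pair lay inside the range of the other 4. Thbs1, the matricellular glycoprotein thrombospondin-1, was at 103 RPKM for miR-33b*, 176 for miR-373-3p and 177 for miR-302d-3p, with 177 to 232 for the others.

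Pcgf5, a Polycomb subunit gene, Myadm, Pafah1b2, the transporter gene Slco5a1, the ubiquitin ligase receptor gene Dcaf15 and the phosphatase gene Dusp3 completed the named lower genes, with gaps of 1.54-fold to 1.72-fold. Thbs1 and Aspn show how the matricellular list (19 measured) divided. Thbs1 was low for miR-33b* alone, while Aspn (asporin) was low in the pair alone, at 12.2 RPKM for miR-33b*, 6.31 for miR-373-3p and 4.04 for miR-302d-3p, with 13.2 to 23.7 for the others. Aspn stands under more than 1 identifier as well. The list's median was 0.18, with 1 member 2-fold higher and 0 lower.

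**Figure D5:**
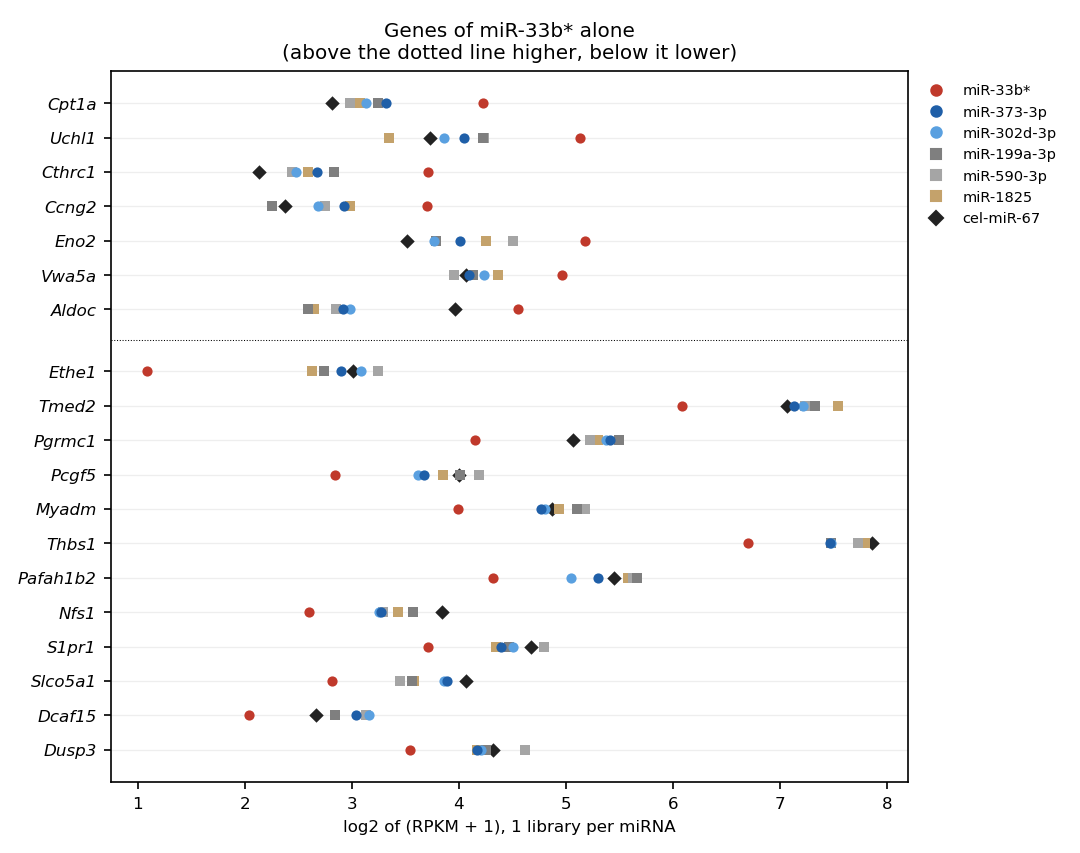
Levels (log2 of RPKM + 1, 1 point per library) of the named genes that stand apart for miR-33b* alone. The red point lies right of the 6 others above the dotted line and left of them below it, farthest for Ethe1 at a gap of 2.90-fold.

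Cholesterol synthesis genes lay on 1 side of the contrast as a list, with few of them past the limit. Of 22 measured, 2 were above 0, 0 were 2-fold higher and 1 was 2-fold lower, with a median of -0.39, against -0.01 for all genes. Against the other 4 libraries the median was -0.10 for miR-33b* and 0.25 for the pair. Hmgcs1, at the entry of the pathway, was at 42.6 RPKM for miR-33b*, 71.0 for miR-373-3p and 71.7 for miR-302d-3p, with 41.1 to 51.4 for the others. For Hmgcs1 the pair lay above all others and miR-33b* inside their range.

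The enzyme gene Idi1 of isoprenoid synthesis, at 17.4 RPKM for miR-33b*, 37.6 for miR-373-3p and 33.8 for miR-302d-3p, was below all other libraries (20.0 to 25.7) for miR-33b*. Insig1, which retains the sterol regulators, was above 0 in the contrast, at 0.28.

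Genes of the unfolded protein and integrated stress responses (16 measured) had 3 members above 0, 0 past the limit in either direction and a median of -0.38. Their median against the other 4 libraries was -0.30 for miR-33b* and 0.10 for the pair. Hspa5, the main chaperone of the endoplasmic reticulum, was at 346 RPKM for miR-33b*, 529 for miR-373-3p and 637 for miR-302d-3p, with 406 to 585 for the others. Herpud1, of protein degradation there, was at 15.2 RPKM for miR-33b*, 25.1 for miR-373-3p and 25.2 for miR-302d-3p, with 21.5 to 43.6 for the others. In both genes miR-33b* was the lowest of the 7 libraries. Atf4 and Asns, of the integrated stress arm, had contrasts of -0.29 and -0.01.

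For 1 list the pair itself was not a unit. Interferon and RNA sensing genes (15 measured) had a median contrast of 0.12, but the median difference of miR-302d-3p minus miR-373-3p was 0.64, against 0.00 for all genes. Mx2, an antiviral GTPase gene, was at 6.61 RPKM for miR-33b*, 3.79 for miR-373-3p and 9.81 for miR-302d-3p, with 1.74 to 8.98 for the others. Isg15, a ubiquitin-like modifier gene, was at 4.64 RPKM for miR-33b*, 2.04 for miR-373-3p and 5.00 for miR-302d-3p, with 1.80 to 4.67 for the others. In both genes miR-33b* lay between the members of the pair, so its contrast there depends on which of them it is set against.

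Of the other lists, Hippo kinases and scaffolds (20 measured) had a median of -0.02 and transforming growth factor and bone morphogenetic protein signalling (19 measured) a median of 0.07. Beyond Lats2, Tgfbr2 and Id2, described above, neither list had a member 2-fold apart. Macrophage and leukocyte markers (8 measured) had a median of -0.27 and smooth muscle and pericyte markers (12 measured) one of 0.09, with 0 members of either past the limit. The 4 measured endothelial and the 4 measured erythroid markers had medians of 0.11 and 0.05. Among the endothelial markers Cldn5 was at 0 RPKM for cel-miR-67 and under 0.1 RPKM in the other 6 libraries.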

How the data were processed

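RPKM values of 17141 genes for each of the 7 libraries were deposited by the authors, with Ensembl identifiers, symbols and gene types. The submitters' processing notes list STAR 2.7, edgeR and Rnor_6.0 without saying what each did. Annotation, strand setting and read counter: not given in the sources used here. Ratios to cel-miR-67 in the authors' deposited table were not used. RPKM values of the 7 single-library files equalled those of the series table.

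From these, log2(RPKM + 1) was computed, which understates the differences of low genes. A mean of 1 RPKM or more was asked of each gene. Fixed limits were 2-fold for the contrast and 1.5-fold for the gap of a part. Lengths and library sizes giving whole reads were found for 100% of genes, within 0.00209 reads. The procedure was tested on data simulated from its own recovered lengths and sizes. Such a test cannot show that these are the true ones. Library sizes ran from 22446204 (miR-33b*) to 34708142 (miR-302d-3p). They are the divisors behind the deposited values and not plain read depth. For miR-33b* the size was below the 22616079 reads over the listed genes. For miR-199a-3p it was 27055357, above 23144660 such reads. The deposited RPKM thus carry a factor per library beyond the listed reads, and its origin was not given. The recovered reads served only for the Clopper-Pearson intervals of 95%. For 2 kb of gene, 3 reads equal 0.0668 RPKM in the miR-33b* library. Python 3.11.15, pandas 2.3.3, numpy 2.4.6 and scipy 1.17.1 were used.

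The members, the 38 gene lists and the rules were chosen with earlier results of these data known. The lists held 550 genes; 527 were matched by symbol or an older symbol and 484 reached 1 RPKM. An older symbol counted only where it named 1 gene and was no other gene's current symbol. Named genes were protein-coding, averaging 5 RPKM or more and with no clone or locus name: up to 12 per direction of the contrast (2-fold from each library of the pair) and of each part, by size, Mdk, Eln, Myl4 and Hspb6, and up to 4 per list and direction. The pattern of clone names was widened after values were seen, which left AC118841.1 and BC030336 unnamed. Other list members were named for their role, after their values were seen. The promoter genes and motifs were also chosen after values were seen, and the E-box was added after the first 4 motifs gave 2 matches. Counts by position inside or outside the other libraries and by gene type, and distances to the pair mean, were added after the data were seen. No test was run, since each miRNA has 1 library. Alternatives covered the pseudocount, the filter, gene types, 2 scalings, the limits and leaving out each library but miR-33b*. Some named genes and list members are not reported here.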

Additional observations from a re-analysis of the deposited data

Results flagged for a closer look

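In 11 genes the pair lay at least 1.5-fold beyond the other 4 libraries on 1 side and miR-33b* lay beyond them on the opposite side, and this is why they are listed. A stricter version, with the 1.5-fold gap asked on both sides, was tried first and held 0 genes, so the distance of miR-33b* is small in each. The difference was not tested.

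Higher in the pair and lowest for miR-33b* were Tceal7 (contrast -2.38), AABR07034833.1 (-1.61) and Frmd4b (-1.41). Tceal7 stood at 2.28 RPKM for miR-33b*, 13.4 for miR-373-3p and 19.3 for miR-302d-3p, with 2.86 to 6.78 for the others.

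Lower in the pair and highest for miR-33b* were Reg3b (3.66), Crym (2.14), Cadm4 (1.64), Btg1 (1.26), Ube2b (1.12), LOC103694902 (1.11), Socs3 (1.05) and Eya4 (1.02). Cadm4, a cell adhesion gene, stood at 5.12 RPKM for miR-33b*, 1.11 for miR-373-3p and 0.823 for miR-302d-3p, with 2.55 to 4.85 for the others. Socs3, an inhibitor of cytokine signalling, stood at 8.002 RPKM for miR-33b*, 3.44 for miR-373-3p and 3.27 for miR-302d-3p, with 5.84 to 7.05 for the others. The cause of these orders was not tested.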

How the results depend on the processing

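No paired analysis was possible because each miRNA has 1 library. Counts below run in the order 2-fold higher, 2-fold lower, shared higher, shared lower, pair alone higher, pair alone lower, miR-33b* alone higher and miR-33b* alone lower, for which 140, 86, 26, 19, 35, 73, 29 and 33 were reported. With a pseudocount of 0.1 RPKM they were 305, 204, 42, 32, 54, 126, 45 and 74, and with 5 RPKM 40, 22, 8, 5, 18, 33, 6 and 8, by construction, since the pseudocount sets how far low genes can part. Asking a mean of 5 RPKM or more, 85 and 47 were 2-fold apart, 11 were shared higher, 19 pair alone higher and 12 miR-33b* alone higher; among protein-coding genes the last was 19. Past 2-fold from each library of the pair were 91 and 49, past 1.5-fold 617 and 467, and past 3-fold 28 and 13. A gap of 2-fold left 8, 2, 8, 16, 2 and 2 genes in the parts. Leaving out each other library in turn gave 29 to 39 shared higher, 25 to 36 shared lower, 39 to 55 pair alone higher, 82 to 97 pair alone lower, 38 to 45 miR-33b* alone higher and 40 to 51 miR-33b* alone lower. The largest counts came without miR-590-3p (39) and miR-1825 (36) in the shared part, without cel-miR-67 (55, 97 and 45) and without miR-1825 (51); fewer libraries make each gap easier to reach. Setting miR-33b* against 1 library of the pair gave 164 and 75 genes without miR-302d-3p and 185 and 119 without miR-373-3p. Of the pair's 200 genes, miR-33b* went with the pair by the gap in 22.5%, and in 14.3% with a pseudocount of 5 RPKM. Both scalings kept every count within 1.5-fold and put the median of all genes at -0.0041 and 0.0035. Of the named genes, 3 of the shared part with contrasts near 0 changed sign with 1 library of the pair: Pvrl2 (0.05) and Tmem109 (-0.02) without miR-302d-3p, and Lsp1 (-0.04) without miR-373-3p. Among list medians, those of G2 and M phase (0.10), atrial genes (-0.02), interferon genes (-0.08) and inflammation (0.06) changed sign without miR-373-3p, and those of glycolysis (-0.04) and antioxidant genes (-0.02) without miR-302d-3p, where the interferon median was 0.42. The 22616079 reads for miR-33b*, the fewest, limit the genes with few reads most.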

Other observations

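Some abundant genes past the 2-fold limit fall outside the naming rule and were picked here after their values were seen. Bnip3, which encodes a mitochondrial protein of cell death and mitophagy, stood at 103.7 RPKM for miR-33b*, 51.8 for miR-373-3p and 30.1 for miR-302d-3p, with 32.8 to 73.6 for the others. Egln3, which encodes an oxygen-sensing prolyl hydroxylase, stood at 51.7 RPKM for miR-33b*, 28.9 for miR-373-3p and 18.1 for miR-302d-3p, with 41.6 to 58.9 for the others. miR-33b* was above all 6 libraries for Bnip3, and within the others for Egln3.

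In the other direction, Tgm2, a transglutaminase gene, stood at 163.8 RPKM for miR-33b*, 298.3 for miR-373-3p and 390.7 for miR-302d-3p, with 152.1 to 248.8 for the others. Prdx6, a peroxiredoxin gene, stood at 36.2 RPKM for miR-33b* and 80.8 and 80.7 for miR-373-3p and miR-302d-3p, with 41.8 to 79.5 for the others.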
